A study of Homo sapiens with 6 samples.

Results

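The RNAs described here encode the RNA exosome, its nucleases and cofactors, and the XRN exonucleases, as measured in PD-L1 precipitates of MDA-MB-231 cells. They were chosen by gene name: every listed RNA whose symbol begins with EXOSC, and those of DIS3, DIS3L, DIS3L2, SKIV2L2, MPHOSPH6, C1D, ZCCHC7, ZCCHC8, RBM7, PAPD5, PAPD7, XRN1 and XRN2. Of 23 such genes, 10 were among the 3152 RNAs in the authors' table: XRN1, DIS3, SKIV2L2, ZCCHC8, DIS3L2, ZCCHC7, MPHOSPH6, EXOSC7, DIS3L and C1D. The other 13 were not analysed here. What share of all genes entered the table was not determined, so counts of listed genes show neither enrichment nor depletion of a group.

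MDA-MB-231 is a human triple-negative breast cancer line. Formaldehyde-fixed, sonicated lysates of it were precipitated either with an antibody to PD-L1, the membrane protein encoded by CD274, or with isotype IgG, which measures RNA carried down without specificity. Each group has 3 libraries, called repeats in the labels, and both groups are the same line with no other treatment named. The labels do not say whether repeats are separate cultures, so the p-values below cover only the spread between these libraries, which may be technical.

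The RNA exosome is a ring of EXOSC subunits that feeds RNA into a nuclease, which degrades it from the 3′ end. In the nucleus helicase-containing adaptors select its substrates, among them introns, ribosomal RNA precursors and short-lived promoter transcripts. XRN1 works from the opposite end, digesting decapped mRNA in the cytoplasm.

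Each value is a score, the authors' sum of peak scores assigned to a gene in a library. The authors kept RNAs that were at least 5-fold higher with PD-L1, so the direction of every comparison with IgG was set before these tests and the tests are a description of selected RNAs. The listed scores summed to between 123921 and 217732 in the PD-L1 libraries and to between 8353 and 19288 in the IgG libraries. PD-L1 repeat 3 had the lowest sum of its group, IgG repeat 1 that of the IgG group, and repeat 3 stood apart from both other PD-L1 repeats in many RNAs. Read depth is unknown, and counting intervals are not given for that reason. No input RNA was analysed here, so an RNA that is abundant in the cells and one that is pulled down efficiently cannot be told apart. The table held 1 of 8 markers of MDA-MB-231, CD274 itself, 0 of 6 epithelial markers and 0 of 4 immune markers, and since it lists precipitated RNAs only, the identity of the cells could not be checked from it.

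All 10 RNAs were higher with PD-L1 (limma on log2(score + 1), Benjamini-Hochberg over all 3152 RNAs, adjusted p from 0.000103 to 0.0143), as were 97.7% of all listed RNAs. In all 10 the lowest PD-L1 score lay above the highest IgG score, which held for 95.9% of the table. Neither share sets these RNAs apart from the rest. Their log2 differences ran from 2.29 for DIS3L to 6.45 for XRN1 with a median of 3.33, beside 3.42 over all listed RNAs. None of the 10 was at 0 in all 3 IgG libraries, although 31.7% of the table was, and over the remaining RNAs of the table the median difference was 3.20. The median ratio of group means was 11.5 for the 10 RNAs and 10.5 for listed RNAs with an IgG score above 0. Log2 differences refer to log2(score + 1) throughout and understate the change where scores are low.

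**Figure D1:**
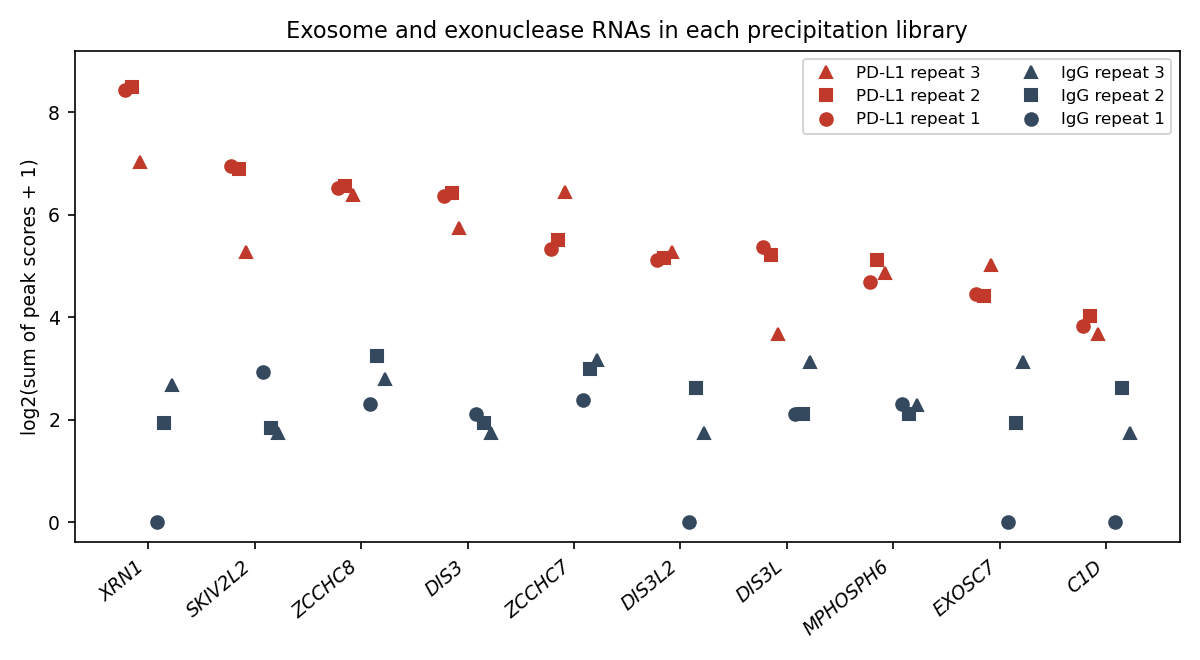
Log2(sum of peak scores + 1) of each exosome or exonuclease RNA in the 3 PD-L1 libraries (red) and the 3 IgG libraries (dark blue), with marker shape for the repeat, ordered by mean PD-L1 score. Every red marker lies above every dark blue marker of the same RNA, and XRN1 is the highest of the 10 in each PD-L1 library.

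XRN1, the cytoplasmic 5′ to 3′ exonuclease, had the highest scores of the 10, before any account of transcript length. It scored 347, 361 and 129 in PD-L1 repeats 1 to 3 and 0, 2.83 and 5.40 in IgG repeats 1 to 3. The lowest PD-L1 score, that of repeat 3, was 24.0 times the highest IgG score. XRN1 ranked 72 of 3152 by mean PD-L1 score and 35 by log2 difference, which was 6.45 ± 0.80 (SE; adjusted p = 0.00058 in limma). The ratio of its group means was 101.7, but rests on IgG scores of which 1 was 0. Its PD-L1 score spread widely, at 279 ± 129.8 (SD, n = 3), and without PD-L1 repeat 3 the log2 difference was 6.93 ± 0.91. XRN2, its nuclear relative, was not analysed here.

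All 3 genes of the DIS3 nuclease family were listed, while of the 10 EXOSC genes that encode the ring and its further nuclease only EXOSC7 was. DIS3, the processive nuclease of the nuclear exosome, reached 81.6, 84.7 and 52.3 in the PD-L1 libraries and 3.32, 2.83 and 2.32 in the IgG libraries. Its IgG scores were close together (2.82 ± 0.50, SD, n = 3), but all lay within 2 times the smallest score above 0 of their library. Its log2 difference of 4.25 ± 0.32 (SE) had the smallest adjusted p of the 10, 0.000103 in limma. That difference is taken from IgG scores near the lowest, but its SE also holds the spread of the PD-L1 libraries. Without PD-L1 repeat 3 the SE was 0.17. DIS3L2, which acts apart from the exosome on uridylated RNAs, scored 33.7, 34.6 and 37.4 against 0, 5.14 and 2.32. Its PD-L1 libraries varied least of all 10 RNAs, with a coefficient of variation of 5.42%. DIS3L, the nuclease of the cytoplasmic exosome, scored 40.2, 35.9 and 11.7 against 3.32, 3.34 and 7.73. In this RNA the gap between the groups was the narrowest, with PD-L1 repeat 3 only 1.51 times IgG repeat 3. The log2 differences of DIS3L2 and DIS3L were 3.73 ± 0.68 and 2.29 ± 0.58 (SE), and DIS3L ranked 2985 of 3152 in the table.

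EXOSC7, a subunit of the exosome ring without catalytic activity of its own, had PD-L1 scores of 21.0, 20.3 and 31.2 and IgG scores of 0, 2.83 and 7.71. Here PD-L1 repeat 3 was the highest library, and IgG repeat 3 came nearest to the PD-L1 libraries, the lowest of which was 2.63 times as high. The log2 difference of 2.94 ± 0.80 (SE) passed (adjusted p = 0.0119 in limma) but did not without PD-L1 repeat 3 (2.75, adjusted p = 0.061), and the adjusted p over all alternatives ran from 0.00262 to 0.721.

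The nuclear cofactors supplied 5 of their 8 genes. SKIV2L2, today named MTREX, encodes the MTR4 helicase that unwinds RNA for the nuclear exosome. Its PD-L1 libraries gave 123, 118 and 37.4 and its IgG libraries 6.65, 2.57 and 2.32. Repeat 3 was the lowest PD-L1 library here too, and the log2 difference was 4.20 ± 0.61 (SE). ZCCHC8, the scaffold of the nuclear exosome targeting complex, scored 90.9, 93.2 and 82.8 against 3.93, 8.48 and 5.92. Its 3 PD-L1 libraries lay close together (89.0 ± 5.47, SD, n = 3) and the log2 difference was 3.71 ± 0.34 (SE). The RNA-binding partner of that scaffold, RBM7, was not analysed here.

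ZCCHC7, the zinc-knuckle protein of the TRAMP polyadenylation complex, had PD-L1 scores of 39.4, 44.2 and 85.7 and IgG scores of 4.23, 6.94 and 7.97. Repeat 3 was its highest PD-L1 library, unlike in XRN1 and SKIV2L2. MPHOSPH6, which helps dock the helicase on the exosome, scored 24.8, 33.6 and 28.2 against 3.93, 3.34 and 3.86. Its IgG scores varied least of the 10 RNAs (SD 0.32, n = 3), all within 2 times the smallest score above 0 of their library. C1D, an RNA-binding partner of the exosome in ribosomal RNA maturation, was lowest with 13.1, 15.2 and 11.7 against 0, 5.14 and 2.32. The log2 differences were 2.91 ± 0.42 for ZCCHC7, 2.66 ± 0.28 for MPHOSPH6 and 2.39 ± 0.68 (SE) for C1D. C1D had an adjusted p of 0.0143 in limma. It lost the call when any 1 PD-L1 library was left out, at log2 differences of 2.39, 2.29 and 2.47 without repeats 1, 2 and 3 and adjusted p-values of 0.0523, 0.0577 and 0.0532. Over all alternatives its adjusted p ran from 0.00228 to 0.884. The ratio of its group means was 5.37, just inside the authors' limit. GENCODE names 5 C1D pseudogenes and, among the others of the 10, 1 of DIS3L2. How reads shared with pseudogenes were assigned is not given in the sources used here.

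**Figure D2:**
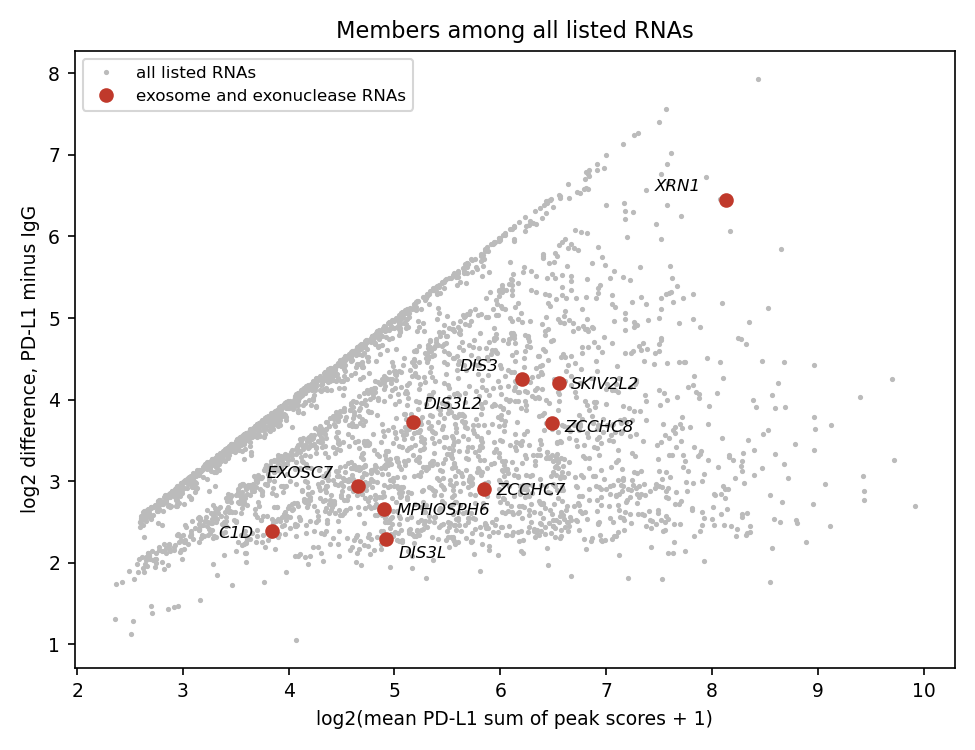
Each point is 1 listed RNA, by log2(mean PD-L1 sum of peak scores + 1) and the log2 difference between PD-L1 and IgG, with the 10 exosome and exonuclease RNAs in red. XRN1 lies near the upper right, while DIS3L and C1D lie near the lower edge at 2.29 and 2.39. The diagonal upper edge is formed by RNAs at 0 in all 3 IgG libraries, and none of the 10 lies on it.

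The IgG side of these comparisons rests on small scores. Of the 30 IgG scores of the 10 RNAs, 4 were 0, all in IgG repeat 1 (XRN1, DIS3L2, EXOSC7 and C1D), a library in which 68.2% of the table was at 0. In IgG repeats 2 and 3 none of the 10 was at 0, beside 45.7% and 44.3% of the table. A further 16 lay above 0 but within 2 times the smallest score of their library. That smallest score was 2.42 in IgG repeat 1 and 2.06 in both others, and the share of the table within this bound was not computed. The median of mean IgG scores was 3.61 for the 10 RNAs and 1.715 over the table, so low IgG scores do not set these RNAs apart. Mean IgG scores of the 10 spanned 2.49 to 6.38, a 2.57-fold range, while their mean PD-L1 scores spanned a 20.9-fold range.

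PD-L1 repeats 1 and 2 were close for these RNAs, with a ratio of repeat 2 to repeat 1 between 0.894 in DIS3L and 1.35 in MPHOSPH6. Repeat 3 was below both in 6 of the 10 RNAs and above both in 3, beside 63.8% and 23.9% of the table. Relative to the mean of repeats 1 and 2 it stood at 0.308 in DIS3L, 0.310 in SKIV2L2 and 0.366 in XRN1. At the other end it stood at 2.05 in ZCCHC7, higher than in 94.3% of listed RNAs, and at 1.51 in EXOSC7 and 1.09 in DIS3L2. The remaining RNAs lay between 0.629 (DIS3) and 0.966 (MPHOSPH6). The median of the 10 was 0.862, against 0.715 over the table. Without PD-L1 repeat 3, 8 of the 10 passed, as did 90.6% of the table, and the log2 differences of all 10 ran from 2.47 to 6.93.

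**Figure D3:**
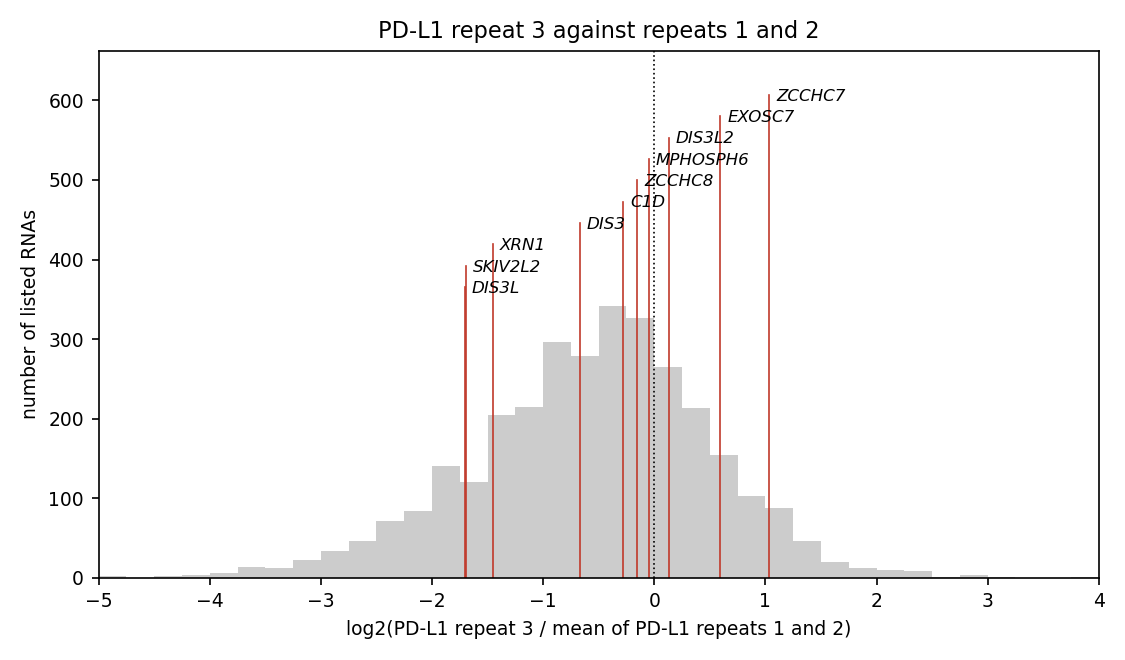
Grey bars count listed RNAs by the log2 ratio of PD-L1 repeat 3 to the mean of PD-L1 repeats 1 and 2, and red lines place the 10 exosome and exonuclease RNAs (line height has no meaning; RNAs beyond the axis are not drawn). DIS3L, SKIV2L2 and XRN1 lie far to the left of equality at the dotted line, and ZCCHC7 and EXOSC7 to its right.

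A sum of peak scores can grow with the length of the RNA, so levels were also set per kilobase of the longest coding transcript in GENCODE 29. On this scale the PD-L1 level of XRN1, whose transcript of 10.1 kb has 42 exons, was 27.5 ± 12.8 per kb (SD, n = 3). The short RNAs MPHOSPH6 (1.10 kb) and EXOSC7 (1.06 kb) stood beside it at 26.2 ± 3.99 and 22.9 ± 5.78 per kb. SKIV2L2 was at 22.2 ± 11.5, ZCCHC7 at 20.0 ± 9.0 and ZCCHC8 at 15.7 ± 0.97 per kb. Lower levels were those of DIS3L2 (10.1 ± 0.55), DIS3L (7.77 ± 4.08), DIS3 (6.87 ± 1.69) and C1D (5.98 ± 0.80 per kb). DIS3, with a transcript of 10.6 kb, was thus behind only XRN1, SKIV2L2 and ZCCHC8 by mean score, but above only C1D per length. Neighbours in this order overlapped in their 3 PD-L1 libraries in 8 of 9 pairs, and the exception was the step from ZCCHC8 to DIS3L2. The median over the 10 RNAs was 17.8 per kb against 8.08 over the 3139 listed RNAs with a GENCODE transcript. Their median mean IgG score was also above that of the table, at 3.61 against 1.715. IgG levels per kb were not computed, so the higher level per kb cannot be read as particular to PD-L1. The range from highest to lowest narrowed from 20.9-fold by score to 4.60-fold per kb.

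**Figure D4:**
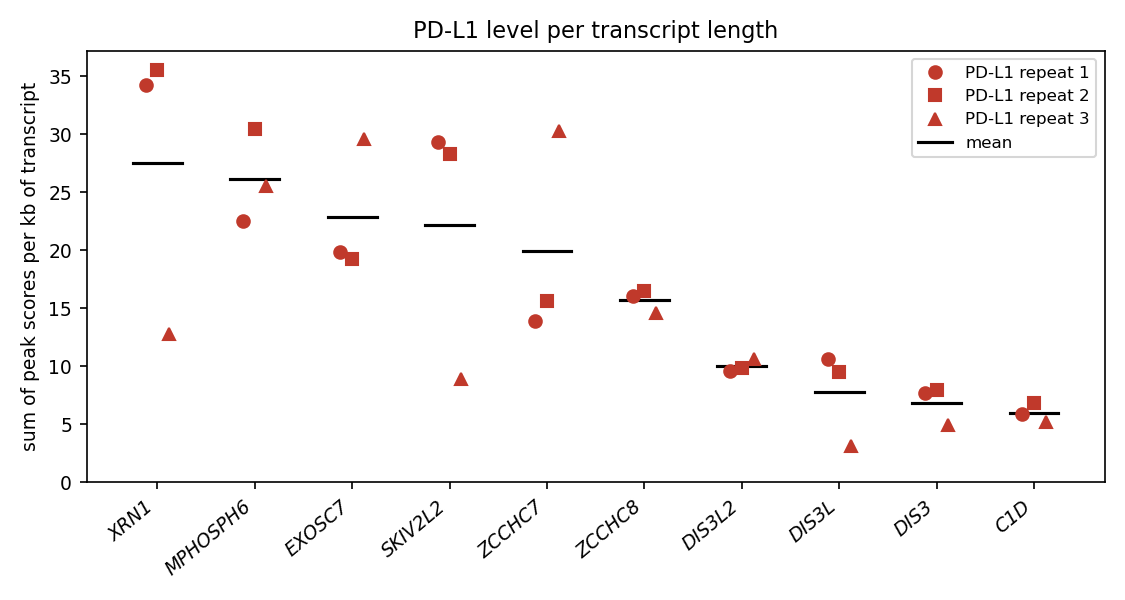
Sum of peak scores per kilobase of the longest coding GENCODE transcript in each PD-L1 library, with a bar at the mean of the 3 libraries, in descending order. The values of ZCCHC8 (14.6 to 16.5) and DIS3L2 (9.63 to 10.7) do not overlap, unlike every other pair of neighbours.

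In other features the 10 RNAs lay near the table as a whole. Their median transcript length was 3.63 kb against 4.27 kb, their median number of exons 14.5 against 12, their median GC content 41.0% against 43.4% and their median gene span 65.3 kb against 59.0 kb. GC content ran from 31.8% in C1D to 54.8% in DIS3L2, the nuclease RNA whose PD-L1 libraries varied least. The genes lie on 8 chromosomes, XRN1 and EXOSC7 sharing chromosome 3 and DIS3L2 and C1D chromosome 2. In GENCODE the coding genes BORA and PIBF1 overlap DIS3 on the opposite strand, PLPP1 overlaps SKIV2L2 on the opposite strand, and CLEC3B and ZDHHC3 overlap EXOSC7, the former on its own strand. The libraries are stranded, but whether peaks were assigned by strand is not given in the sources used here. Of these neighbours BORA, an activator of the mitotic kinase Aurora A, was in the table, at 40.8, 40.4 and 35.8 in the PD-L1 libraries and 3.02, 6.17 and 10.8 in the IgG libraries.

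How far the 10 RNAs stood above IgG depended on how the libraries were scaled. When all libraries were rescaled to 1 common sum of listed scores, the median log2 difference of the whole table fell by 1.66 to 1.76, and that of the 10 RNAs fell by 2.81 to 0.52. None of the 10 then passed in limma in either direction, while 31.4% of the table passed as higher with PD-L1 and 60 RNAs as lower. Of the 10, only XRN1 had an unadjusted p under 0.05 (log2 difference 4.21 ± 1.33, SE; adjusted p = 0.0648, in a range from 0.000111 over all alternatives). XRN1 was also the only 1 of the 10 above the table's median on this scale. That median includes the 31.7% of listed RNAs at 0 in all 3 IgG libraries, whose IgG scores stay at 0 when rescaled. None of the 10 is such an RNA, and a rescaled median without those RNAs was not computed. The larger fall of the 10 therefore cannot be read as a trait of these RNAs. DIS3 was at 1.01, DIS3L2 at 1.54 and SKIV2L2 at 0.92. ZCCHC7 (-0.49), MPHOSPH6 (-0.63) and DIS3L (-1.02) were lower with PD-L1 without passing. Rescaling removes enrichment that listed RNAs have in common, and which scaling fits the libraries was not tested.

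**Figure D5:**
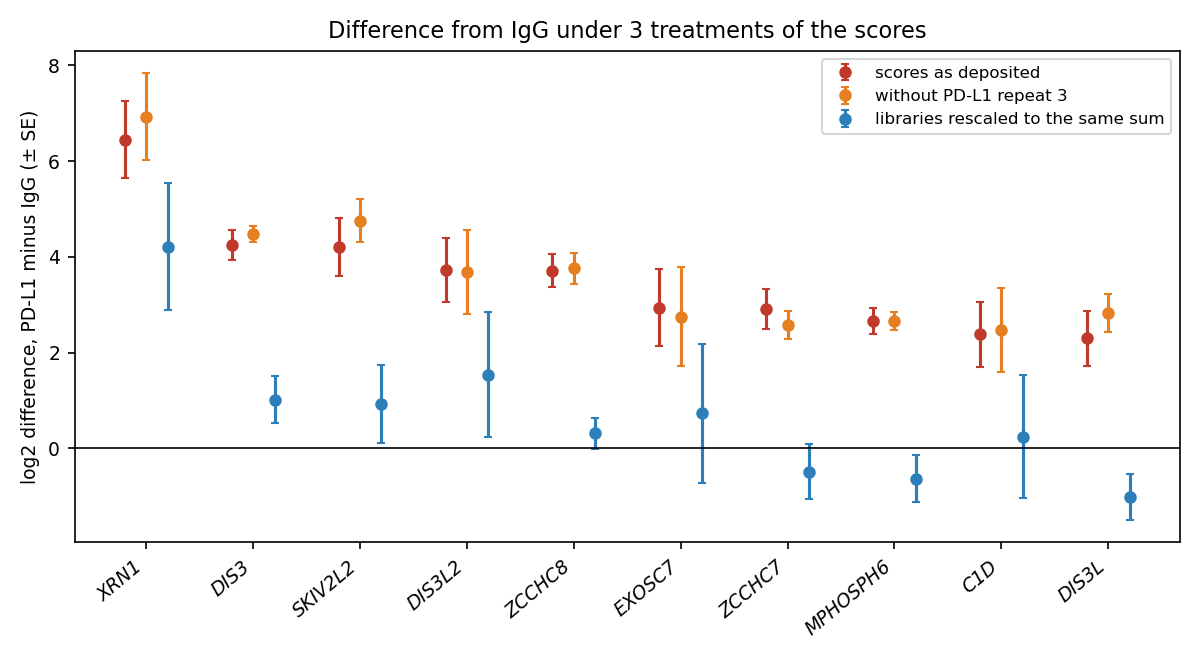
Log2 difference between PD-L1 and IgG with its standard error for each of the 10 RNAs, from the scores as deposited, without PD-L1 repeat 3, and with libraries rescaled to a common sum. The first and second treatments give values from 2.29 to 6.93, and with rescaling all values but that of XRN1 lie between -1.02 and 1.54.

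Other genes of RNA decay were taken from 8 lists with 87 genes, of which 29 were in the table. Without the share over all genes, this count and those per list below show neither enrichment nor depletion. Of these, 28 were higher with PD-L1 (limma, adjusted p), 27 had no overlap between the groups, and the median log2 difference was 3.55. These counts are again near the shares of the whole table. The adaptor that links polyadenylated nuclear RNA and the cap-binding complex to the exosome supplied 3 of 9 genes, all higher. RBM26 had the highest mean PD-L1 score of all decay RNAs named here (620, 723 and 155 against 35.7, 52.0 and 30.6). It was followed in this list by its paralogue RBM27, at a mean of 83.6, and the cap-binding subunit NCBP1, at 34.9. The cytoplasmic Ski complex, which threads mRNA into the exosome, supplied 1 of 5 genes, its scaffold TTC37. In TTC37 the PD-L1 scores were 386, 385 and 24.3 and the IgG scores 4.23, 28.0 and 32.4. PD-L1 repeat 3 lay below 2 of the IgG libraries, and the difference did not pass (3.18 ± 1.30, SE; adjusted p = 0.0511 in limma).

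Decapping, the step before XRN1, supplied 5 of 19 genes, all higher, with a median log2 difference of 3.74. They include the decapping enzyme DCP2 (74.5, 90.2 and 66.6 with PD-L1 against 0, 5.91 and 0), its activator DCP1A (mean PD-L1 score 19.5) and the eIF4E transporter EIF4ENIF1 (28.2). Deadenylation, which shortens the poly(A) tail before either route, supplied 6 of 16, all higher (median 3.60). CNOT4, CNOT6L and CNOT10 had the highest mean PD-L1 scores there, 64.5, 49.1 and 43.8. Nonsense-mediated decay supplied 5 of 10, all higher (median 3.44), led by the kinase SMG1, UPF2 and UPF3A. SMG1 scored 147, 154 and 11.3 with PD-L1 against 0, 5.66 and 8.75 with IgG. Its PD-L1 repeat 3 lay far below the other PD-L1 repeats, as in TTC37, and not far above IgG repeat 3. UPF2 was even over the repeats at 106, 107 and 93.8, and UPF3A had a mean of 55.7.

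MicroRNA-guided decay supplied 4 of 7 genes, all higher and with the highest median of the lists, 4.05. The Argonaute RNA AGO4 scored 81.8, 106 and 76.9 and was at 0 in all 3 IgG libraries, while AGO2, the slicing Argonaute, scored 236, 269 and 147 against 11.8, 32.1 and 32.7. AGO3 lay between them by mean PD-L1 score at 99.5. Binding of Pumilio and AU-rich elements together with uridylation supplied 3 of 10, all higher (median 3.49). These were PUM2, at a mean PD-L1 score of 188, and the terminal uridylyl transferases ZCCHC6 and ZCCHC11, whose tails mark RNAs for DIS3L2. ZCCHC6 scored 138, 147 and 112.5 and ZCCHC11 scored 107, 142 and 132 with PD-L1. The remaining 3′ exonucleases supplied 2 of 11, both higher, the mitochondrial PNPT1 and ERI2 at mean PD-L1 scores of 50.7 and 10.2.

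The RNAs most like XRN1 over the 6 libraries, by Euclidean distance between log2(score + 1) values, were BRIP1 at 1.06, VPS8 at 1.36 and USP50 at 1.42, against a median distance of 6.18 over all other RNAs. All have scores of 0 in IgG repeat 1 and a lower PD-L1 repeat 3, as BRIP1 shows with 333, 369 and 157 against 0, 5.92 and 8.48. Nearest to DIS3 were ICE2 at 0.46, FAM120C at 0.72 and TDRD3 at 0.76, against a median of 4.08. For XRN1 and DIS3 alike the nearest RNAs were picked by this distance, so values below the median were set in advance. ICE2 scored 84.3, 72.5 and 55.7 against 3.32, 2.83 and 3.34. CD274, the RNA of PD-L1 itself, scored 10.5, 26.5 and 23.4 against 0, 2.83 and 4.63, and its mean PD-L1 score of 20.1 was below that of every exosome or exonuclease RNA except C1D.

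None of the 10 RNAs is on the authors' list of 207 DNA damage genes. In the authors' deposited table of Gene Ontology terms, 1 of 47 entries has RNA in its name, RNA processing, with 185 of 868 genes and a p-value of 0.0127. No entry there names RNA decay or catabolism.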

How the data were processed

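RNA immunoprecipitation libraries of MDA-MB-231 cells were analysed, 3 with PD-L1 antibody and 3 with IgG, grouped by the sample titles. Per the file headers, the deposited score of an RNA in a library is a sum of peak scores; how it was normalised is not given in the sources used here. TopHat2 2.0.14, HOMER 4.8.3 and the build hg19 appear in the submitters' processing notes, with no roles given. The authors' deposited p-value per Gene Ontology term was copied, not recomputed. For all 3152 listed RNAs limma 3.58.1 (R 4.3.3) was run on log2(score + 1), without covariates, with Benjamini-Hochberg adjustment over all listed RNAs and a 2-sided threshold of 0.05. The fit was tested on simulated data with both groups drawn around the PD-L1 means. These lack the zeros of the IgG libraries, so the test does not cover scores near the floor. Transcript lengths, exons, GC content and overlaps came from GENCODE 29 (GRCh38) through Entrez identifiers, which matched 99.6% of listed RNAs; no coordinates are given, since the builds differ. The exosome and exonuclease RNAs and the decay lists were chosen with earlier results of these data known. All 10 RNAs are named, with up to 3 RNAs of each decay list by mean PD-L1 score, 3 nearest to XRN1 and to DIS3 each, and CD274; BORA and MPP6 were named after their values were seen. Alternatives were 3 treatments of low scores or zeros, rescaled libraries, a filter, a replicate block and each library left out.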

Additional observations from a re-analysis of the deposited data

How the results depend on the processing

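The 10 RNAs were higher with PD-L1 in all fits of the scores as deposited that kept all libraries and a pseudocount of 1, that set scores of 0 to the smallest listed score, or that left out an IgG library or the lower quartile of the table. The number passing was 8 and 7 with pseudocounts of 0.1 and 0.01, where EXOSC7 and C1D, and with 0.01 also DIS3L2, did not pass at larger differences, and 8 to 10 with a library left out. With rescaled libraries it was 0, the count for all listed RNAs 990 higher and 60 lower, and that for the other decay genes 4 higher, with DIS3L (-1.02), MPHOSPH6 (-0.63) and ZCCHC7 (-0.49) reversed; the cause was not tested. The median of the 10 was 4.04 and 4.62 with pseudocounts of 0.1 and 0.01, 0.52 rescaled, and with a library left out between 2.85, IgG repeat 1 missing, and 3.69, IgG repeat 3 missing. That of all listed RNAs was 5.39 and 7.15 with those pseudocounts, 3.05 with zeros replaced, 3.67 with the filter, 1.76 rescaled and 3.18 to 3.61 with a library left out. Other decay genes passing fell from 28 to 17 with a pseudocount of 0.01. Same-numbered PD-L1 and IgG libraries deviated from their group means with correlations of -0.12, 0.071 and -0.079 across RNAs. Differently numbered libraries gave -0.11 to 0.14. Since many IgG scores were 0, these values cannot decide whether same-numbered libraries were prepared together. With the replicate block 10 of the 10 RNAs, 3091 listed RNAs and 27 other decay genes passed.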

Other observations

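The order of the exosome and exonuclease RNAs also depended on which length their scores were set against. Per 10 kb of gene span, introns included, the mean PD-L1 level was highest for ZCCHC8 (30.2) and DIS3 (24.3), both genes with spans under 30 kb, followed by XRN1 (19.7) and MPHOSPH6 (12.9). It was lowest for DIS3L2 (0.92), whose gene spans 383 kb, and for C1D (1.91) and ZCCHC7 (2.38). DIS3, among the lowest per kilobase of transcript, was thus second per gene span, and ZCCHC7 changed the opposite way. Whether the peaks lie in exons or introns is not given in the sources used here.

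The symbol MPP6 is used both for a membrane scaffold protein, the gene listed here, and as another name of MPHOSPH6. The scaffold RNA had PD-L1 scores of 40.6, 48.6 and 17.2 and IgG scores of 0, 2.83 and 0. MPHOSPH6 scored lower in PD-L1 repeats 1 and 2 and higher in PD-L1 repeat 3 and in every IgG library.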
